A study of Xenopus tropicalis with 31 samples.

Results

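Chromosome 1 of Xenopus tropicalis carried 13605 of the 124262 windows of open chromatin that had a position in version 9.0 of the genome. Each window is the 400 bp around the summit of an ATAC-Seq peak, and a window belonged here when its chromosome was 1. All 13605 windows were found in the count table and all passed the filter on low counts. Position alone decided which windows belonged, but the chromosome itself was taken up with earlier results of these data known. They were followed along the chromosome in 39 bins of 5 Mb, numbered from the start, with 257 to 703 windows in each.

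In ATAC-Seq a transposase inserts sequencing adapters into DNA that nucleosomes leave exposed, so the number of fragments over a window measures its accessibility. Promoters and enhancers are the main regions of this kind, and enhancers can lie far from the gene they act on. Pax6 is a transcription factor of the eye, brain and spinal cord, and it marks dividing neural progenitor cells of the cord. After tail amputation a Xenopus tadpole regrows spinal cord, notochord, muscle and skin, and the progenitors left in the stump supply the new neural tissue. Cells of different kinds open different enhancers, and each chromosome holds genes of many kinds.

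Tadpoles of a line with the transgenes pax6:GFP, cryga:RFP and actc1:RFP lost the hind part of the tail at NF stage 41, and tail cells were collected from uninjured animals and at 0, 6, 24 and 72 hours post amputation (hpa). The pax6 condition held sorted GFP+ cells, and the all-tissue condition held GFP+ and GFP- cells of the tail together in one tube. The comparison asks which windows are more or less open in these GFP+ cells than in all cells of the collected tissue. The paper describes that tissue as tail tips cut off at amputation (uninjured) or the new regenerate. The headers of the count table, however, tag the uninjured libraries of both conditions Whole.Tail, and the sources do not settle this. The authors state that the GFP+ cells may lack some progenitors and may include cells that are already differentiating. There were 13 pax6 samples (2 uninjured, 2 at 0hpa and 3 at each of 6hpa, 24hpa and 72hpa) and 14 all-tissue samples (2 at 0hpa and 3 in every other group). Each sample pooled tails of several animals, GFP came from a transgene driven by pax6 sequences and not from pax6 itself, and the tadpoles came from crosses of a heterozygous transgenic frog with a wild-type frog. The sample labels give the transgenic genotype for every library, whereas the headers of the count table tag each all-tissue library WT and each sorted one pax6. A difference of sorting and a difference of genetic background between the tadpoles of the 2 conditions therefore cannot be told apart. Nothing in the labels says whether replicates came from separate clutches, so p-values measure the spread between these samples only.

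Total counts ranged from 3069659 to 12130125 in the pax6 samples and from 4401013 to 13256076 in the all-tissue samples. A further 2 pax6 libraries, with 11 and 143 counts, were left out. At pax6, whose regulatory sequences are also in the GFP transgene, 1 of 12 windows was called, 2.83-fold higher in the pax6 samples (log2 1.5, adjusted p = 1.6e-12). Of the 10 windows nearest to sox2, another progenitor gene, none was called (smallest adjusted p = 0.264), and 1 of 12 nearest to elavl3, a neuronal gene, was called higher (log2 0.59, adjusted p = 0.0493). The muscle gene actc1, whose promoter is likewise in a transgene of the line, had 1 of 3 windows called higher (log2 1.32, adjusted p = 1.73e-10). The part of the transgenes in these calls was not tested. In these bulk libraries, a change in the share of a cell type and a change of accessibility within its cells cannot be told apart.

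More windows differed between the tissues on chromosome 1 than on any other chromosome. A window was called when its adjusted p was under 0.05, with p-values adjusted over all 124342 windows tested. Over all timepoints together, 171 windows of chromosome 1 were more accessible in pax6, where the background over all windows was 0.638%, and 229 were less accessible, where it was 0.881%. These 400 windows were 2.94% of the chromosome (95% exact binomial interval 2.66% to 3.24%, which covers counting error only), against 1.12% of the windows of chromosomes 2 to 10 (904 of 80432). The other chromosomes lay between 0.957% (chromosome 5) and 1.48% (chromosome 9), and the unplaced scaffolds at 1.93% (584 of 30225). At the percent of chromosomes 2 to 10, chromosome 1 would have held 152.9 calls. Its share was 2.62 times that percent, 3.01 times for windows higher in pax6 and 2.38 times for windows lower. On the unplaced scaffolds, which these ratios leave out, 0.946% of windows were higher and 0.986% lower, against 1.26% and 1.68% on chromosome 1. With 10.9% of all windows, chromosome 1 held 21.2% of the calls.

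**Figure D1:**
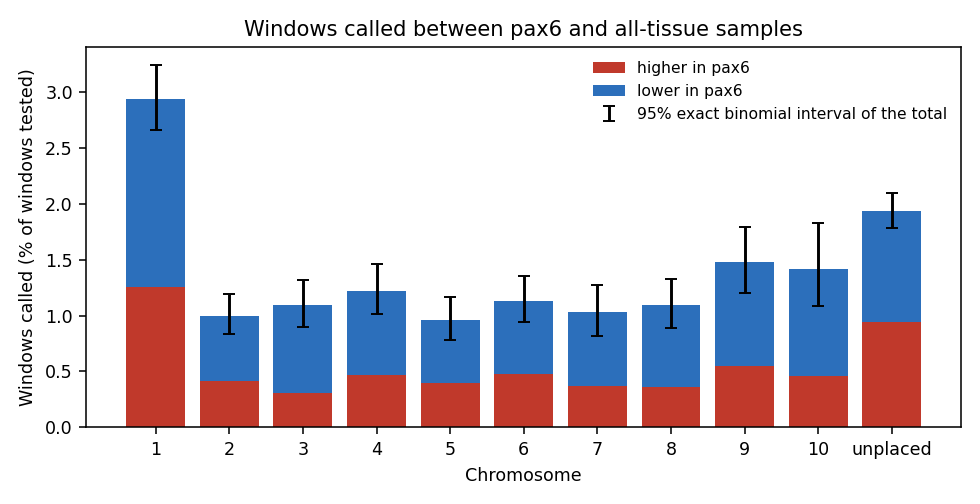
Percent of tested windows called between pax6 and all-tissue samples (y axis) for chromosomes 1 to 10 and the unplaced scaffolds (x axis), split into windows higher (red) and lower (blue) in pax6. Error bars are 95% exact binomial intervals of the total, which take windows as independent and cover counting error only. Chromosome 1, at 2.94%, stands above the other chromosomes in both directions.

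Chromosome 1 as a whole took a similar share of the counts in both tissues. Chromosome 1 took 8.37% ± 0.187 of all counts in the pax6 samples (SD, n = 13, range 8.02 to 8.67) and 8.41% ± 0.188 in the all-tissue samples (SD, n = 14, range 7.95 to 8.69), and these ranges overlapped. The median log2 fold change of pax6 over all-tissue was -0.0035 on chromosome 1 and 0.0046 on chromosomes 2 to 10. The spread was wider, with an SD over windows of 0.201 against 0.172, and 2.04% of windows changed by more than 0.5 on the log2 scale against 0.809%. At an unadjusted p under 0.05, the shares were 17.2% on chromosome 1, 13.4% on chromosomes 2 to 10 and 16.1% on the unplaced scaffolds. The called windows themselves changed by a similar amount, with a median absolute log2 fold change of 0.51 on chromosome 1 and 0.48 on chromosomes 2 to 10. The ranges of the tissues did not overlap in 22 of the 13605 windows, of which 16 were higher and 6 lower in pax6. The counts were 7 and 4 of 80432 on chromosomes 2 to 10 and 6 and 5 of 30225 on the unplaced scaffolds. Over all 124262 windows they were 29 and 15. Mean accessibility was close (median log2 CPM 2.24 against 2.28, where CPM is the count scaled to the normalised total of the library). Dispersion (median 0.0173 against 0.0169) and the share of windows at most 500 bp from a transcription start (TSS, 9.47% against 9.12%) were close too. The weakest called window, nearest to Xetrov90000277m.g, had an adjusted p of 0.0495, and the first window outside, nearest to mex3c, 0.0502.

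The size of the excess depended on the samples used, and its direction did not. The ratio of 2.62 ran from 1.87 without all-tissue 0hpa replicate 1 to 3.48 without all-tissue 72hpa replicate 1 when each sample was left out in turn. Without all libraries of a timepoint it was 2.76 (uninjured), 1.85 (0hpa), 5.23 (6hpa), 2.64 (24hpa) and 7.30 (72hpa), an alternative chosen after the values were seen. The number of windows lower in pax6 rose from 229 to 359 without all-tissue 0hpa replicate 1. It fell to 89 without the 6hpa libraries, 141 without those of 24hpa and 98 without those of 72hpa, and the number higher fell from 171 to 72 and 97 without those of 6hpa and 72hpa.

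The calls were spread along the whole length of the chromosome and did not sit in one stretch. Every one of the 39 bins held at least 2 and at most 27 called windows, and 36 bins held calls in both directions. The percent called ran from 0.658% to 6.04% across the bins, with a median of 2.70%. Among 221 bins of chromosomes 2 to 10, it ran from 0% to 4.23% with a median of 0.966%, and 22 bins had no call. On chromosome 1, 34 bins lay above the percent over all of chromosomes 2 to 10, 36 lay above the median of the other bins, 27 above their 90th percentile of 2.09% and 9 above the highest of them. The median gap between neighbouring called windows was 0.197 Mb, and the longest gap was 5.89 Mb. Even spacing would give 0.487 Mb, but that is a mean and so not a like measure, and the windows themselves are unevenly dense. The 10 bins with the most calls together held at least 50% of them, but they include bins with many windows, such as bin 2 (703) and bin 39 (675).

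**Figure D2:**
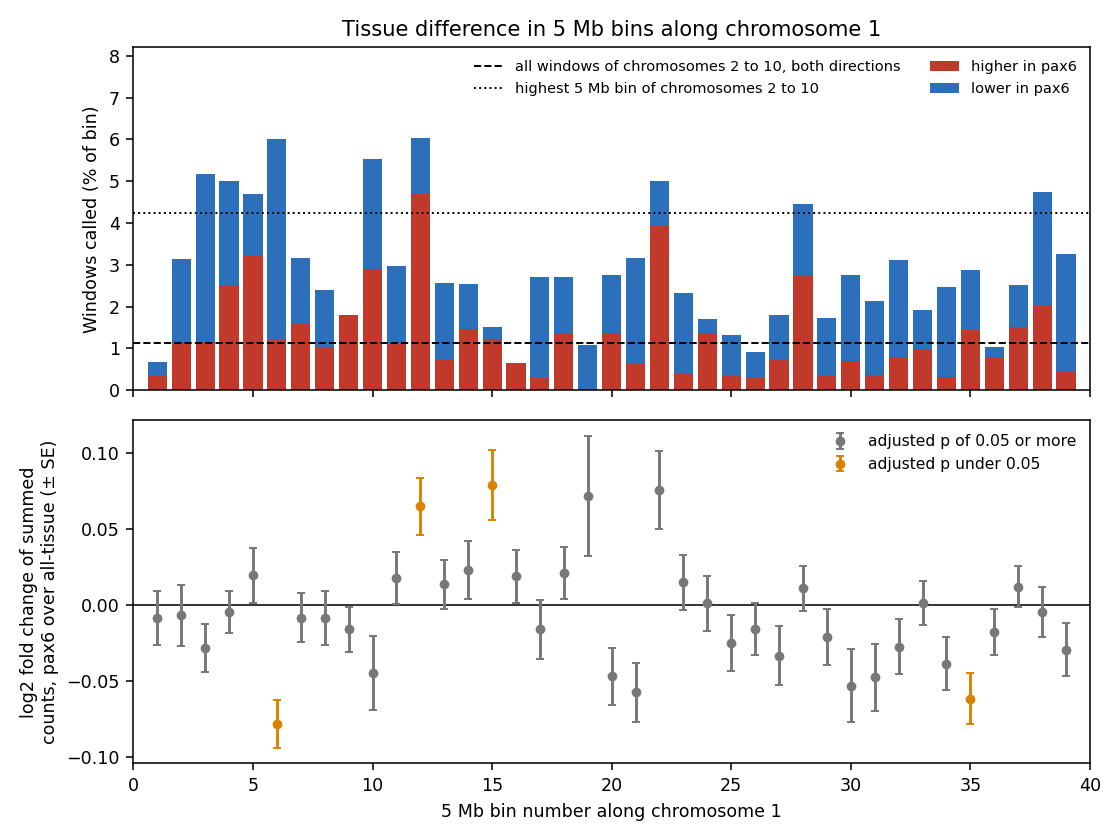
Top, percent of windows called in each 5 Mb bin along chromosome 1 (x axis, bin number), split into windows higher (red) and lower (blue) in pax6, with the percent of chromosomes 2 to 10 (dashed) and their highest bin (dotted, 4.23%). Bottom, log2 fold change of the counts summed over each bin (points, ± SE), with the 4 bins whose adjusted p was under 0.05 in orange. Calls occur in all 39 bins, from 0.658% to 6.04%, and the summed counts differ by -0.078 to 0.079 on the log2 scale.

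Some stretches were denser than others. The first 13 bins held 186 of 5018 windows called (3.71%), the middle 13 bins 85 of 3975 (2.14%) and the last 13 bins 129 of 4612 (2.80%), each above the 1.12% of chromosomes 2 to 10. The highest percents were in bin 12 (55 to 60 Mb, 6.04%), bin 6 (25 to 30 Mb, 6.01%), bin 10 (45 to 50 Mb, 5.52%) and bin 3 (10 to 15 Mb, 5.18%). Together these 4 bins held 84 calls, 21% of the calls with 11% of the windows, and outside them 2.61% of the windows were called. They differed in direction. Bin 12 held 14 windows higher and 4 lower, bin 6 held 4 higher and 16 lower, bin 3 held 6 higher and 21 lower, and bin 10 was even with 10 higher and 9 lower. Over the chromosome, 12 bins held more windows higher, 20 held more windows lower, and 7 held equal numbers. The fewest calls were in bin 16 (75 to 80 Mb), with 2 of 304 windows, and in bin 26, with 3 of 328. Bin 1, at the start of the chromosome, held 4 of 587 (0.681%), below its neighbour bin 2 with 22 of 703 (3.13%). More accessible windows of the chromosome were called more often, from 1.06% in the least to 7.07% in the most accessible of 4 classes. Bins differed in this too, with a median log2 CPM of 2.46 in bin 1, 2.71 in bin 2, 2.10 in bin 12 and 2.06 in bin 16. The part of accessibility in these densities was not tested.

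When counts were summed over all windows of a bin before testing, the summed level differed little between the tissues in any bin. Windows of opposite direction offset each other in such a sum, and 36 of the 39 bins held calls in both directions. The most open windows also weigh most in it. A small summed difference therefore does not show that the single windows of a bin differed little. Of 260 bins on all chromosomes, 9 were called (3.46%), and 4 of them were among the 39 of chromosome 1. At an unadjusted p under 0.05 the shares were close, at 25.6% of the chromosome 1 bins and 23.5% of the other bins. In bin 6 the summed level was 1739 to 1878 CPM in the pax6 samples (median 1770) and 1770 to 2003 in the all-tissue samples (median 1884). The ranges overlapped, and the log2 fold change was -0.078 (SE 0.016, adjusted p = 0.00307). In bin 15 (70 to 75 Mb) pax6 samples lay at 1752 to 2159 CPM (median 1821) and all-tissue samples at 1617 to 1892 (median 1717), a log2 fold change of 0.079 (SE 0.023, adjusted p = 0.0478). The bin was higher in pax6, with overlap of the tissues. Bin 12 stood at 1309 to 1468 CPM in pax6 (median 1368) and 1206 to 1384 in all-tissue (median 1327), a log2 fold change of 0.065 (SE 0.019, adjusted p = 0.0477). Bin 35 (170 to 175 Mb) stood at 1504 to 1740 CPM in pax6 (median 1692) and 1696 to 1792 in all-tissue (median 1751), a log2 fold change of -0.062 (SE 0.017, adjusted p = 0.0435). Both overlapped between the tissues. The 39 bins ran from -0.078 to 0.079, and the median absolute change was 0.021 on chromosome 1 and 0.020 in the other bins. Bin 6 stayed called in all 27 fits that left out 1 sample, bin 35 in 16, bin 12 in 11 and bin 15 in 7. The count of 4 fell to 1 when any of the all-tissue 24hpa samples was left out. It also fell to 1 without replicates 1 or 2 of all-tissue at 6hpa or at 72hpa, without replicate 3 of either tissue at 0hpa, and without replicate 1 of uninjured pax6. It fell to 2 without replicates 1 or 3 of uninjured all-tissue, replicate 3 of all-tissue at 72hpa, replicates 2 or 3 of pax6 at 6hpa, replicate 3 of pax6 at 24hpa and replicate 1 of pax6 at 72hpa. With 10 Mb bins no bin of chromosome 1 was called by edgeR, with 5 at an unadjusted p under 0.05.

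Tissue differences were called on chromosome 1 at each timepoint, most of them at 72hpa and 6hpa. At 6hpa 38 windows were called, 21 higher and 17 lower in pax6, which was 0.279% of the chromosome against 0.0448% of chromosomes 2 to 10 and a background of 0.0844% over all windows. At 24hpa there were 16 (7 higher and 9 lower; 0.118% against 0.0261%, background 0.041%). At 72hpa there were 68 (21 higher and 47 lower; 0.5% against 0.327%, background 0.363%). In uninjured tails 4 windows were called, all higher (0.0294% against 0.00497%, background 0.0137%), and at 0hpa 4, of which 3 were higher (0.0294% against 0.00373%, background 0.00724%). The ratio to chromosomes 2 to 10 was 5.91 in uninjured tails, 7.88 at 0hpa, 6.24 at 6hpa, 4.50 at 24hpa and 1.53 at 72hpa. The ratios at the first 2 of these timepoints rest on 4 windows each, and all 5 leave out the unplaced scaffolds. With the scaffolds included, chromosome 1 held 10.9% of the windows. Its share of the calls was then 23.5%, 44.4%, 36.2%, 31.4% and 15.1%, in the same order. At an unadjusted p under 0.05, the shares on chromosome 1 and on chromosomes 2 to 10 were 8.14% and 6.83%, 6.07% and 5.24%, 9.76% and 8.40%, 8.89% and 7.03%, and 12% and 11%, in the same order of timepoints. At 72hpa, 6hpa and 24hpa the calls did not gather in one stretch. The 68 windows of 72hpa lay in 29 bins with at most 5 in one, the 38 of 6hpa in 21 bins with at most 4, and the 16 of 24hpa in 11 bins with at most 4. The 4 of uninjured tails and the 4 of 0hpa each lay in 3 bins, with 2 in bin 18. These are too few to say whether they gathered.

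**Figure D3:**
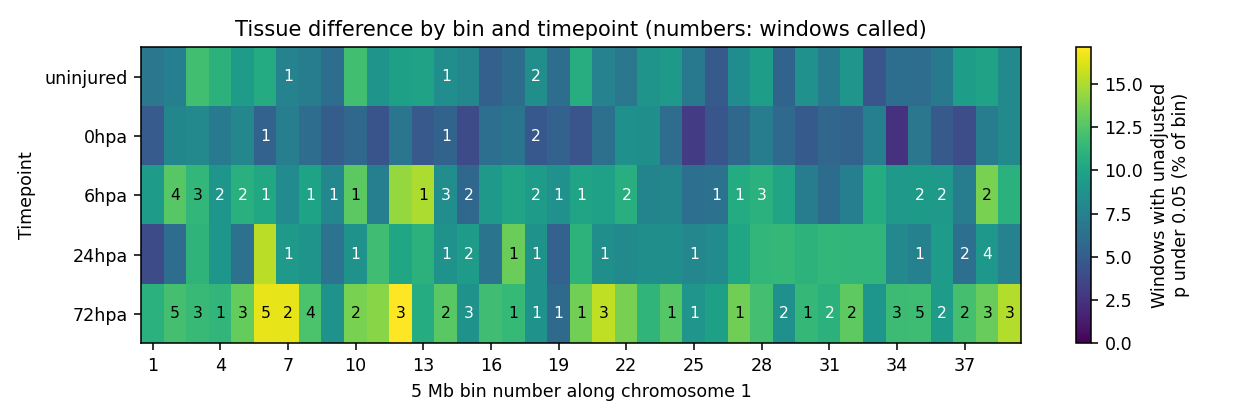
Percent of windows in each 5 Mb bin of chromosome 1 (x axis, bin number) with an unadjusted p under 0.05 between pax6 and all-tissue samples at each timepoint (y axis), as colour, with the number of windows called at an adjusted p under 0.05 printed in the cell. Calls at 6hpa and 72hpa are scattered over 21 and 29 of the 39 bins.

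With 2 or 3 samples a group, these counts were unstable. The 38 windows of 6hpa became 18, 14 and 11 without all-tissue replicates 1, 2 and 3, and 24, 12 and 14 without pax6 replicates 1, 2 and 3. The 16 of 24hpa became 5 and 4 without all-tissue replicates 2 and 3, and 5, 4 and 8 without pax6 replicates 1, 2 and 3. The 68 of 72hpa became 14 and 9 without all-tissue replicates 1 and 3, and 34 and 33 without pax6 replicates 1 and 3. When the second libraries of 2 all-tissue samples were left out, 17 windows were called at 72hpa. In uninjured tails, the 4 windows became 119 without pax6 replicate 1, when the lone pax6 sample left was assumed to vary like the other groups. They became 1 without pax6 replicate 2 or all-tissue replicate 3, and 0 without all-tissue replicate 1, with 1097 at an unadjusted p under 0.05 in edgeR. The 4 windows of 0hpa became 1 without pax6 replicate 3 and 0 without all-tissue replicate 3, with 1086 at an unadjusted p under 0.05.

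The tissue difference was not called to vary with time in any window of chromosome 1. The edgeR test of the tissue by timepoint terms called 0 of the 13605 windows, and 5 of all windows (0.00402%). At an unadjusted p under 0.05 it gave 879 windows of chromosome 1, 6.46% against 6.53% on chromosomes 2 to 10. The count became 8 without replicate 3 of all-tissue at 0hpa. It became 1 without replicate 2 of pax6 at 72hpa and 11 without replicate 1 of uninjured pax6. Changes over time within one tissue showed no excess on the chromosome. Within the pax6 samples 0 windows of chromosome 1 were called over the 5 timepoints, against a background of 0.000804%, and 949 had an unadjusted p under 0.05 (6.98% against 7.23%). Within the all-tissue samples 11 were called, 0.0809% of the chromosome against 0.0982% of chromosomes 2 to 10 and a background of 0.103%. Summed bins were called at single timepoints in 6 of 1300 tests over all chromosomes (0.462%). Of these, 2 were on chromosome 1, bin 6 at 24hpa (log2 -0.15, SE 0.029, adjusted p = 0.00463) and bin 21 at 72hpa (log2 -0.13, SE 0.033, adjusted p = 0.0478). In uninjured tails, at 0hpa and at 6hpa edgeR called no bin of chromosome 1, with 4, 3 and 3 bins at an unadjusted p under 0.05. These were 10.3%, 7.69% and 7.69% of its bins, fewer than the 15.4%, 15.4% and 15.8% of the other bins. At 24hpa and 72hpa the shares were 7.69% and 12.8% on chromosome 1, against 5.43% and 12.2%. The count of 2 became 0 without all-tissue 24hpa replicate 2 (18 tests at an unadjusted p under 0.05) and 5 without pax6 uninjured replicate 1. It became 1 when any sample of all-tissue 6hpa, all-tissue 72hpa or pax6 0hpa was left out. It also became 1 without replicate 1 of all-tissue at 24hpa or of pax6 at 72hpa, replicate 2 of pax6 in uninjured tails, at 6hpa or at 24hpa, or replicate 3 of uninjured all-tissue.

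A window called on 4 timepoints mostly changed the same way at the other one. To read the difference in samples that had not been used for the calls, each timepoint was left out in turn, a check added after the values were seen. Of 161 chromosome 1 windows called without the 6hpa samples, 156 had the same direction at 6hpa (96.9%), with a median log2 fold change in that direction of 0.64. For 72hpa it was 185 of 195 (94.9%, median 0.48), for uninjured tails 265 of 292 (90.8%, 0.51), for 24hpa 257 of 296 (86.8%, 0.35) and for 0hpa 346 of 480 (72.1%, 0.26). On chromosomes 2 to 10 the shares were 92.9%, 84.2%, 82.9%, 63.3% and 49.1% in the same order, lower in each of the 5 readings. At 0hpa the windows called higher kept their direction in 156 of 167 (93.4%), and those called lower in 190 of 313 (60.7%). These are counts over windows, which share samples, and were not tested.

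**Figure D4:**
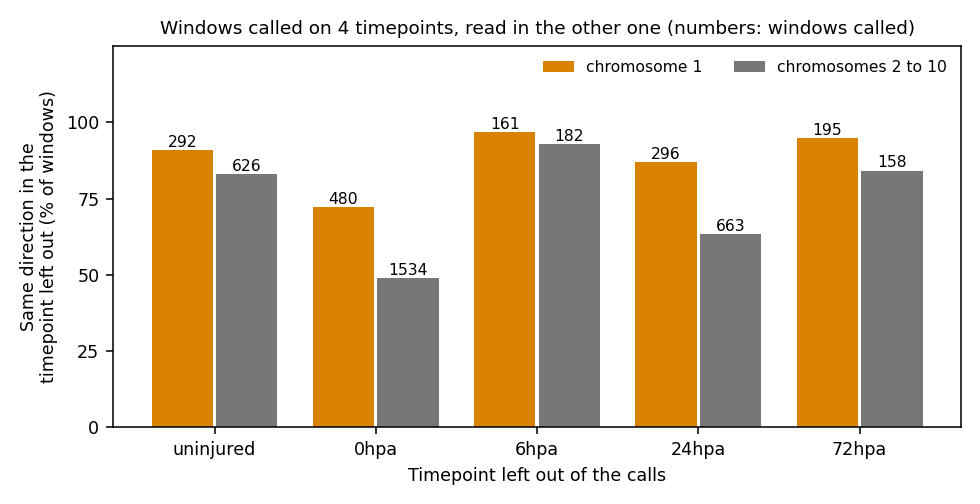
Percent of windows with the same direction of tissue difference (y axis) in the timepoint left out of the calls (x axis), for chromosome 1 (orange) and chromosomes 2 to 10 (grey), with the number of windows called on the other 4 timepoints above each bar. Chromosome 1 is at 96.9% for 6hpa and 72.1% for 0hpa, above chromosomes 2 to 10 at every timepoint.

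The excess lay mainly outside promoters. Within 500 bp of a TSS, 53 of 1288 windows of chromosome 1 were called (4.11%), 4 higher and 49 lower in pax6, close to the 3.48% on chromosomes 2 to 10. Between 500 bp and 5 kb, 74 of 1760 were called (4.20% against 1.12%). Between 5 and 50 kb, it was 179 of 6857 (2.61% against 0.900%). Beyond 50 kb, 58 windows were higher and 36 lower, 2.54% of 3700 against 0.734%. The ratio of chromosome 1 to chromosomes 2 to 10 was thus 1.18 at promoters and 3.76, 2.90 and 3.46 in the 3 classes farther out. It held at every level of accessibility, with ratios of 2.97, 2.53, 2.30 and 3.31 from the least to the most accessible of 4 classes with equal numbers of windows genome-wide. These classes were compared by their percents only.

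Some called windows lay beside other called windows of the same direction. Of the 400, 90 (22.5%) had a called neighbour of the same direction whose start lay within 10 kb, compared with 100 of 904 (11.1%) on chromosomes 2 to 10, where called windows are also sparser, and the difference was not tested. The 400 windows formed 344 separate places, of which 23 were pairs and 11 were runs of 3 or more, against 36 pairs and 9 such runs on chromosomes 2 to 10. The longest run was 10 windows, against 4 on chromosomes 2 to 10. Unplaced scaffolds were not included in these counts.

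That longest run lay in bin 12, at chr1:57795122-57825932, beside the genes Xetrov90001070m.g and Xetrov90001072m.g, for which the files give no other name. All 11 windows between its ends were higher in pax6, and 10 of them were called, with log2 fold changes of 0.44 to 0.80. Their summed level was 68.8 to 107 CPM in the pax6 samples (median 80.7) and 34.5 to 63.6 in the all-tissue samples (median 54.0), so no sample of one tissue reached the range of the other. The run of 6 windows at chr1:25821808-25826450 in bin 6, all nearest to Xetrov90000565m.g, went the other way. Its summed level was 13.8 to 27.1 CPM in pax6 (median 20.8) and 30.2 to 53.4 in all-tissue (median 39.9), again without overlap. A further 2 called windows of this gene lay outside the run, and all 8 were lower in pax6. At chr1:137874751-137880998, in bin 28, 4 neighbouring windows nearest to LOC100145473 were higher, each with every pax6 sample above every all-tissue sample. Together they stood at 99.9 to 130 CPM in pax6 (median 115) and 69.4 to 89.5 in all-tissue (median 78.3). The samples in these sums are those that gave the calls, so the separation is a description.

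The other runs had 3 windows each. Higher in pax6 were those nearest to sepsecs, an enzyme that makes selenocysteine on its transfer RNA, to tll1-like.1, a relative of the tolloid metalloproteases that cut matrix and BMP-binding proteins, and to LOC100497610. Lower were those nearest to psip1, a chromatin-binding protein, and to 4 genes known only by assembly names. The psip1 windows summed to 4.27 to 7.57 CPM in pax6 and 6.39 to 13.2 in all-tissue, with overlap, and 1 pair of them shares bases, so their counts are not independent. Of the 11 runs, that of the 3 windows nearest to Xetrov90000911m.g was the most accessible, at 1277 to 1687 CPM in pax6 (median 1420) and 1423 to 2042 in all-tissue (median 1693). The tissues overlapped there, and the log2 fold changes were -0.21 to -0.30.

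The 400 called windows were nearest to 298 of the 2732 genes named for the chromosome, and 25 of these genes had windows called in both directions. Of the 2732 names, 1468 matched a symbol of the RefSeq annotation of assembly UCB_Xtro_10.0 and 671 were assembly identifiers. The nearest TSS need not be the gene that a window regulates. Most gene names below mark a place, and distances are to that TSS.

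The window with the smallest p of those higher in pax6 was at chr1:85851036-85851435, in bin 18, 12270 bp from LOC100495583-like.1. The pax6 samples stood at 20.2 to 30.8 CPM (median 24.1) and the all-tissue samples at 6.47 to 16.2 (median 10.2), without overlap. The log2 fold change was 1.24 (SE 0.087, adjusted p = 9.79e-15). It was called at every timepoint by itself, with log2 fold changes from 0.93 at 72hpa to 1.43 at 0hpa. Only 1 other window did so, at chr1:66971429-66971828, 668 bp from the TSS of Xetrov90001217m.g, at 10.7 to 14.6 CPM in pax6 (median 12.3) and 3.20 to 7.13 in all-tissue (median 4.53), a log2 fold change of 1.31 (SE 0.099, adjusted p = 1.34e-13).

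The largest change among the named windows was at chr1:33620909-33621308, in bin 7, nearest to Xetrov90000717m.g. It stood at 2.62 to 6.53 CPM in pax6 (median 4) and 0.573 to 2.29 in all-tissue (median 1.40), a 2.98-fold difference (log2 1.58, SE 0.17, adjusted p = 6.52e-09). At these levels a sample held few counts in the window, and the change was called in uninjured tails, at 24hpa and at 72hpa but not at 0hpa (log2 0.74, SE 0.42, adjusted p = 0.911) or 6hpa (log2 1.15, SE 0.37, adjusted p = 0.273). A difference between those timepoints was not called (adjusted p = 0.825).

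Gdnf, which encodes glial cell line-derived neurotrophic factor, a secreted ligand that supports neurons, had 2 called windows of 17. At chr1:184504362-184504761, 12132 bp from its TSS, pax6 samples stood at 6.54 to 13.8 CPM (median 10.1) and all-tissue samples at 3.19 to 6.49 (median 5.05). No all-tissue sample reached the lowest pax6 sample, and the difference was 2.05-fold (log2 1.04, SE 0.12, adjusted p = 4.09e-08). At single timepoints it was called at 72hpa (log2 1.34, SE 0.22, adjusted p = 0.00399) and had a log2 fold change of 0.51 in uninjured tails (SE 0.27, adjusted p = 0.707), without a called difference between the timepoints (adjusted p = 0.869). The second, at chr1:184494039-184494438, 1809 bp from the TSS, stood at 3.91 to 6.65 CPM in pax6 and 2.23 to 4.82 in all-tissue, with overlap (log2 0.52, SE 0.12, adjusted p = 0.00891).

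The other named windows with the smallest p among those higher in pax6 changed less. Both windows nearest to cwc27-like, a relative of a cyclophilin of the spliceosome, were 24896 and 26305 bp from its TSS in bin 36, with log2 fold changes of 0.76 (adjusted p = 2.17e-08, no overlap) and 0.92 (adjusted p = 1.78e-09, with overlap). A window 506 bp from the TSS of LOC100486041-like stood at 11.4 to 19.8 CPM in pax6 (median 13.9) and 6.13 to 10.1 in all-tissue (median 8.27), a log2 fold change of 0.82 (SE 0.084, adjusted p = 1.98e-09). For LOC100497610 (log2 0.51), iqcd (0.49) and LOC100485927 (0.64), 1 window each also showed no overlap, at medians of 55.2, 50.6 and 25.9 CPM in pax6 and 39.6, 36.3 and 17.0 in all-tissue. Of the 4 called windows nearest to LOC100497610, 3 were higher and 1 lower.

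**Figure D5:**
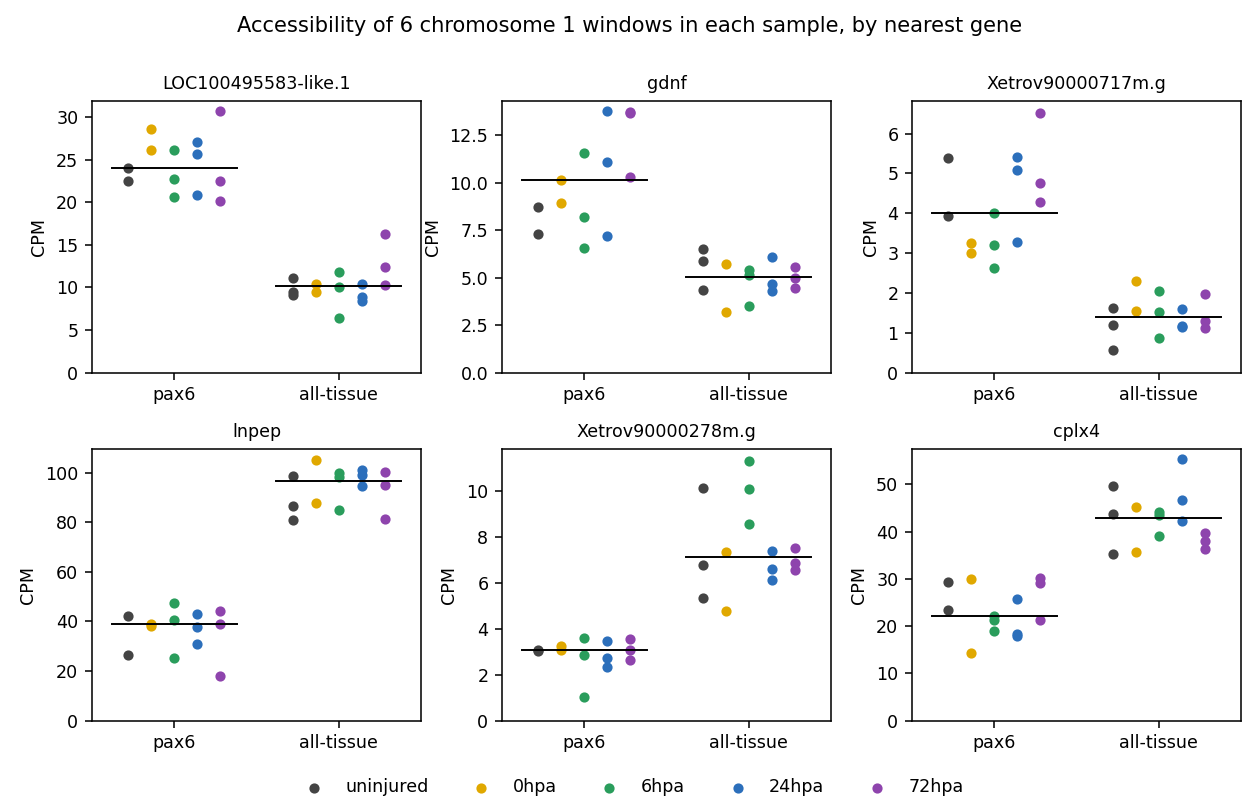
CPM (y axis) in each sample (points, coloured by timepoint) for the pax6 and all-tissue conditions (x axis) in 6 chromosome 1 windows, titled by nearest gene, with the median over all samples of a tissue as a line. In the upper row every pax6 sample lies above every all-tissue sample, and in the lower row every one lies below, at all 5 timepoints.

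Among the windows lower in pax6, the one nearest to lnpep, which encodes a membrane aminopeptidase, had the smallest p. At chr1:173155721-173156120, in bin 35, the pax6 samples stood at 18 to 47.5 CPM (median 38.9) and the all-tissue samples at 80.7 to 105 (median 96.5). The highest pax6 sample was far below the lowest all-tissue sample, and the pax6 level was 2.57-fold lower (log2 -1.36, SE 0.091, adjusted p = 1.4e-13). The log2 fold change was between -1.32 and -1.46 at all 5 timepoints, past the threshold at 6hpa, 24hpa and 72hpa. Likewise without overlap were 1 of the 3 called windows nearest to Xetrov90000278m.g (2 lower and 1 higher) and 1 of the 8 nearest to Xetrov90000565m.g (all lower). The first, at chr1:9715959-9716358 in bin 2, stood at 1.05 to 3.6 CPM in pax6 (median 3.07) and 4.76 to 11.3 in all-tissue (median 7.11), a log2 fold change of -1.36 (SE 0.13, adjusted p = 2.87e-10). The second, in the run of bin 6, had a log2 fold change of -1.30 (SE 0.12, adjusted p = 8.17e-11) and was the 1 window called lower at 0hpa (log2 -1.83, SE 0.29, adjusted p = 0.00234).

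Cplx4 encodes a complexin, a protein that binds the SNARE complex in transmitter release. Its window at chr1:188153731-188154130, in bin 38, stood at 14.4 to 30.2 CPM in pax6 (median 22.1) and 35.3 to 55.4 in all-tissue (median 42.8), without overlap (log2 -0.89, SE 0.090, adjusted p = 7.91e-09). The change was largest at 24hpa (log2 -1.23, SE 0.17, adjusted p = 0.000263) and was -0.50 at 72hpa (SE 0.17, adjusted p = 0.203), with no called difference between timepoints (adjusted p = 0.749). Vim.2 is a vimentin gene, of the intermediate filaments of progenitor and mesenchymal cells, and had 3 windows called, all lower. The one with the smallest p, at chr1:11596377-11596776, stood at 6.10 to 13.8 CPM in pax6 (median 9.51) and 13 to 23.3 in all-tissue (median 18.2), with overlap at the edge (log2 -0.95, SE 0.10, adjusted p = 1.66e-08).

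Other windows lower in pax6 were nearest to aimp1, a part of the aminoacyl-tRNA synthetase complex (log2 -0.63, adjusted p = 2.52e-06), gne, an enzyme of sialic acid synthesis (log2 -1.13, adjusted p = 8.12e-06), fhdc1, a formin-type protein (log2 -0.82, adjusted p = 6.36e-06), slbp, which binds the stem-loop of histone mRNA (log2 -0.88, adjusted p = 1.72e-05), dysf-like, a relative of dysferlin (log2 -0.80, adjusted p = 1.51e-05), and LOC100170420 (log2 -0.50, adjusted p = 2.22e-07). Of these, only fhdc1 had no overlap between the tissues, at 2.30 to 5.88 CPM in pax6 and 6.42 to 11 in all-tissue. The gne window had means that differed by -1.81 at 72hpa (SE 0.34, adjusted p = 0.00821) and by -0.066 in uninjured tails (SE 0.33, adjusted p = 0.993) on the log2 scale, and that spread over time was not called (adjusted p = 0.618). In bin 12, a window 68536 bp from egf, the epidermal growth factor gene, was higher in pax6 at 8.19 to 17.6 CPM (median 11.2) against 4.54 to 9.65 (median 7.58), with overlap (log2 0.62, SE 0.10, adjusted p = 0.000102).

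Of the 400 called windows, 352 had the sign of the overall change at all 5 timepoints and 48 at 4. These signs were read in the samples that gave the calls, so that count is in part built in, unlike the readings in left-out timepoints given above. A few windows were called mainly at some. The window nearest to LOC100490955, at chr1:85907688-85908087 in bin 18, was higher in pax6 by 1.57 in uninjured tails (SE 0.26, adjusted p = 0.015), 2.19 at 0hpa (SE 0.30, adjusted p = 0.000685) and 1.38 at 6hpa (SE 0.24, adjusted p = 0.00707) on the log2 scale. At 24hpa and 72hpa the values were 0.82 (SE 0.22, adjusted p = 0.175) and 0.52 (SE 0.21, adjusted p = 0.325). The all-tissue samples stood at 4.57 to 7.5 CPM in uninjured tails and at 0hpa and at 10.4 to 17.5 at 72hpa, whereas the pax6 samples ranged over 14.6 to 28.0 throughout. The test of a change over time in the tissue difference gave an adjusted p of 0.375. The window nearest to LOC100488176-like was lower in pax6 by -1.61 at 24hpa (SE 0.20, adjusted p = 1.51e-05) and between -0.29 and -0.71 at the other timepoints, again without a called difference (adjusted p = 0.343).

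The lists of genes of tail cell types and signals touched few of the calls. Of 73 windows nearest to the 8 listed neural progenitor genes matched by name on the chromosome, 1 was higher in pax6 and none lower (1.37% called, median log2 fold change 0.00080), against 2.94% and a median of -0.0035 over all windows of the chromosome. It was a window 125137 bp from fgfr3, a fibroblast growth factor receptor, at 3.6 to 16.4 CPM in pax6 (median 6.72) and 2.57 to 6.13 in all-tissue (median 4.42; log2 0.74, SE 0.17, adjusted p = 0.0146). The tissues overlapped, the highest value being that of pax6 uninjured replicate 2, and the call was lost when the second libraries were left out (adjusted p = 0.0692). Nkx6-1, neurog2, msi1, prom1, ptch1, rax and slc1a3, the other progenitor genes counted, had no called window. The list also names vim, but vim.2, with its 3 windows called lower, was not counted under that name. At an unadjusted p under 0.05, the list had 7 windows higher and 6 lower.

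Of 194 windows nearest to 12 neuron and axon genes, 2 were higher and 1 lower (1.55%, against 2.94% of the chromosome; median 0.017). Sema6a, a transmembrane semaphorin that guides axons, had both directions, with a window higher at chr1:162990218-162990617 (log2 0.65, SE 0.13, adjusted p = 0.0039) and one lower at chr1:162561033-162561432 (log2 -1.05, SE 0.20, adjusted p = 0.00181). The latter stood at 0.512 to 2.62 CPM in pax6 (median 1.07) and 1.32 to 4.51 in all-tissue (median 2.48), with overlap. Unc5c, a netrin receptor of axons, had 1 of 25 windows called, at a log2 fold change of 0.55 (SE 0.13, adjusted p = 0.0199). No window was called for isl1, lhx5, slit2, efna5, epha5, gria2, gabra2, glra3 or glrb.

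Signalling genes of tail growth held 8 calls in 164 windows (4.88%, against 2.94% of the chromosome), 5 higher and 3 lower, with a median log2 fold change of 0.017. Among ligands and their inhibitors, these were the 2 windows of gdnf and 1 of 11 windows of sfrp2, a secreted Wnt inhibitor, all higher. Among receptors, fgfr3 had the window above, and fzd10, a Wnt receptor, had 2 of 9 windows called lower, the stronger at 1.30 to 4.32 CPM in pax6 and 3.36 to 6.36 in all-tissue (log2 -0.64, SE 0.14, adjusted p = 0.00777). Smad2, which carries the signal of activin-type receptors, had 1 window higher and 1 lower of 17. Fgf10, fgf20, fgf2, fgf5, fst, lef1, dkk2, bmp3, bmpr1b, spry1, smad1 and ptch1 had none. The lists of other tail tissues each had few windows on the chromosome, so counts of 0 or 1 are read as no result beside its 2.94%. EdgeR called 0 of 21 windows of skeletal muscle genes (3 higher and 2 lower at an unadjusted p under 0.05), 0 of 37 of notochord, cartilage and matrix genes (1 and 2) and 0 of 19 of blood, vessel and immune genes (0 and 2). Of 14 windows of the epidermis genes klf4 and ocln, 1 was called (7.14%). This single ocln window, at the TSS of this tight junction gene, was lower (log2 -0.55, SE 0.14, adjusted p = 0.032). Its call was lost in 9 alternatives, with adjusted p of up to 0.0671. The lists hold few genes of this chromosome, and their counts describe these windows only.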

How the data were processed

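ATAC-Seq was performed by the authors on cells of X. tropicalis tails. After trimming (Trim Galore), alignment to genome version 9.0 (Bowtie2) and removal of duplicates, they merged all libraries and called peaks (MACS2); versions are not given in the sources used here. The deposited counts are raw fragments of at most 2000 bp per peak from featureCounts, without normalization, in 31 libraries. The deposited summit scores, on the −log10 scale of the MACS2 output, were used only to compare chromosomes and are not printed. Columns of the authors' own fold changes and p-values were not used, only each window's position, nearest gene and distance to its TSS.

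Counts of second libraries (titled rep1.1) were summed with replicate 1 of their group. Tests used R 4.3.3 and edgeR 4.0.16 (TMM, robust dispersion, quasi-likelihood F test) on all windows with at least 1 CPM in at least 2 of 27 samples, with Benjamini-Hochberg adjustment over all windows or all 5 Mb bins (at least 20 windows). A model with 2 groups gave the comparison over all timepoints and one with 10 groups the single timepoints. CPM values are TMM-normalised. Each SE was derived from the test, as the absolute log2 fold change divided by the square root of the F statistic. The median count per sample was 5962615 in pax6 and 7014782.5 in all-tissue.

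Named windows were the 10 per direction with the smallest p over all timepoints, the 2 of smallest p in each of the 4 densest bins, the 2 per direction and timepoint, up to 3 varying with timepoint (none was called) and up to 4 per gene list. Windows in runs of neighbours, the windows next to the threshold, and those of sfrp2 and smad2 were named after their values were seen. The windows, bins, lists and tests were chosen with earlier results of these data known. Alternatives were DESeq2 1.42.0, other normalization, filter, threshold, bins and libraries, and each sample left out in turn. The tests over all timepoints, of windows and of bins, were also run on simulated counts, drawn independently with a fixed dispersion. The simulation held no structure of clutch or genotype and did not cover the single timepoints, so no result here rests on it. Figures used matplotlib 3.10.9. Genome sequence was not used here.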

Additional observations from a re-analysis of the deposited data

How the results depend on the processing

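The share of windows called stayed higher on chromosome 1 than on chromosomes 2 to 10 in every alternative run. The ratio of 2.62 became 3.81 without the second libraries, 1.89 with 23 libraries (6 samples' libraries left out and the second libraries kept as samples of their own), 2.26 with the DESeq2 Wald test, 2.26 with timepoint in the model and 1.92 at an adjusted p under 0.1. Without all libraries of 0hpa, 6hpa and 72hpa it was 1.85, 5.23 and 7.30, and leaving out each sample gave 1.87 to 3.48. The main model did not use the replicate numbers as pairs. None of the 12 pairs of the same timepoint and number had deviations correlated above 0.1 (-0.096 to 0.074). Noisy deviations of single windows in small groups cannot exclude a shared clutch or day. With the replicate block the ratio was 1.83, with 186 windows higher and 337 lower. That fit kept only the 12 pairs and so left out the samples without a partner. Among those was all-tissue 0hpa replicate 1, without which alone the ratio was 1.87, so the effect of the block by itself was not tested.

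Counts moved more. Windows higher (171) became 272 at an adjusted p under 0.1 and 72 and 97 without 6hpa and 72hpa, and ranged over 134 to 209 when each sample was left out. Windows lower (229) became 147 without the second libraries, 356 with the 23 libraries, 412 at an adjusted p under 0.1 and 141, 89 and 98 without 24hpa, 6hpa and 72hpa, and ranged over 176 to 359. DESeq2 called 468 windows, which included all 400. Without the second libraries, the calls of uninjured tails, 6hpa, 24hpa and 72hpa fell to 1, 23, 8 and 17. Over samples left out they ranged over 0 to 119, 11 to 24, 4 to 24 and 9 to 68, those of 0hpa over 0 to 4, and windows varying with timepoint over 0 to 11. Summed bins called (4) became 7 with the 23 libraries, 1 without the second libraries, 1 with edges shifted by 2.5 Mb and 0 with 10 Mb bins, and ranged over 1 to 5. At single timepoints (2) they became 1 without the second libraries and ranged over 0 to 5. Of the 34 named windows, 32 kept direction and call in the 35 alternatives over all timepoints (left-out timepoints and the threshold not among them), and fgfr3 and ocln lost the call in 1 and 9. Many of the 34 were named for a small p in the samples that the alternatives reuse, so this is in part built in. Of all 400 calls, 263 stayed without the second libraries and 309 to 399 when 1 sample was left out. Without 6hpa and 72hpa, 156 and 182 stayed. The causes were not tested. Depth limits single windows at a few CPM, where a sample holds few counts.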
